A study of Bos taurus with 10 samples.

Results

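ALDOA and GAPDH encode enzymes of glycolysis, and their transcripts were followed here in the longissimus muscle, the long muscle of the back, of 10 steers. Both genes were taken from the deposited count table by their Ensembl identifiers, ENSBTAG00000012927 for ALDOA and ENSBTAG00000014731 for GAPDH, so they are 2 of the 16963 genes in it. The steers, castrated male cattle, were an Angus x Simmental cross aged 385 ± 5 days. During lactation the mothers of 5 steers (DDGS group) ate a diet with dried distillers grains and solubles, and the mothers of the other 5 (SBM group) ate the control diet, which the labels name only by that abbreviation. Sires, sampling days and sequencing batches are not labelled, and the diets of the steers after weaning are not described in the labels.

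Aldolase A, the muscle form of aldolase, splits fructose bisphosphate into a pair of triose phosphates. Glyceraldehyde-3-phosphate dehydrogenase (GAPDH) then oxidises glyceraldehyde phosphate, with reduction of NAD, in the step that leads to the first ATP gain of the pathway. Fast-twitch muscle, which fuels contraction from glycogen, is rich in both enzymes, and glycolysis that goes on in muscle after slaughter sets the acidity of meat. GAPDH is also a common reference gene in quantitative PCR. There its level is taken to be the same in all samples and the level of every other gene is divided by it, so any difference in GAPDH is passed on to the genes measured against it.

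The names rest on the identifiers by which the genes were chosen, since the table pairs no identifier with a name and the reference gene table used here lists no Ensembl identifiers. For the same reason the defining markers of muscle, fat, blood and other cell types, and the other genes of glycolysis, could not be looked up. Libraries held 16942156 to 24936741 counts, of which the 2 most abundant identifiers took 48.9% to 54.1%. Between 2524 and 5078 genes per library were listed at 1, the lowest value in the table, but the smallest count of ALDOA was 114906 and of GAPDH 40547, so neither gene comes near that floor. In the RefSeq gene table (ARS-UCD2.0, a later assembly than the UMD3.1 assembly named in the submitters' processing notes) ALDOA overlaps 2 other genes, MIR12060 and LOC132343858, and GAPDH overlaps 0. Mammalian genomes carry processed copies of GAPDH, and the sources used here do not say how reads that fit several places were counted. The 2 counts are therefore uncertain to that extent.

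Both transcripts were among the most abundant in every animal. ALDOA ranked between 7 and 10 of the 16963 genes by count, and GAPDH between 21 and 27. ALDOA took 0.889%, 0.859%, 0.868%, 0.805% and 0.835% of the counts in DDGS replicates 1 to 5. In SBM replicates 1 to 5 its share was 0.816%, 0.779%, 0.907%, 0.595% and 0.672%. SBM replicate 3 was thus the highest of all 10 animals and SBM replicates 4 and 5 the lowest, and the SBM range enclosed the whole DDGS range. GAPDH took 0.331%, 0.307%, 0.331%, 0.298% and 0.301% of the counts in DDGS replicates 1 to 5. In SBM replicates 1 to 5 its share was 0.305%, 0.267%, 0.313%, 0.241% and 0.237%. Here 3 SBM animals, replicates 2, 4 and 5, lay below every DDGS animal, while SBM replicates 1 and 3 lay among them. The exact binomial 95% interval of the GAPDH share was 0.235% to 0.239% in SBM replicate 5 and 0.329% to 0.334% in DDGS replicate 1. Such intervals cover counting error only, because reads amplified without molecular identifiers are not independent molecules. Read counts grow with transcript length, so the higher counts of ALDOA do not rank the 2 genes by level.

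As CPM, counts per 1000000, on library sizes adjusted by TMM, the trimmed mean of M values, which equalises the bulk of genes between libraries, the pattern over animals was broader. ALDOA stood at 9299.6, 8927, 10278, 7101 and 8135 CPM in DDGS replicates 1 to 5. In SBM replicates 1 to 5 it stood at 8936, 7966, 7901, 6231 and 6023 CPM. GAPDH stood at 3464, 3195.5, 3916.5, 2628 and 2928.5 CPM in DDGS replicates 1 to 5. In SBM replicates 1 to 5 it stood at 3335, 2736, 2729.8, 2524 and 2125 CPM. For both genes DDGS replicate 3 was the highest and SBM replicate 5 the lowest of the 10. In each gene 2 DDGS animals exceeded all SBM animals and 2 SBM animals fell below all DDGS animals, and the others overlapped. In bulk muscle, fewer cells of a type and less RNA per cell cannot be told apart.

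**Figure D1:**
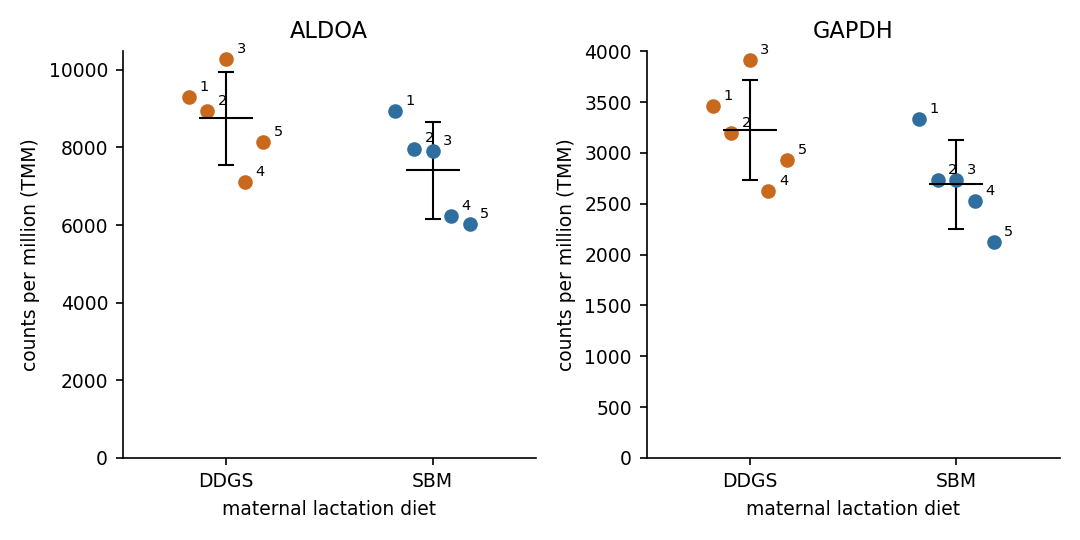
CPM (TMM) of ALDOA and GAPDH, on linear axes from 0, in the DDGS and SBM groups. Points are single steers with their replicate numbers, and black bars give the mean and SD of each group (n = 5). The groups overlap in both genes, with DDGS replicate 3 at the top (10278 and 3916.5 CPM) and SBM replicate 5 at the bottom (6023 and 2125 CPM).

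Whether the maternal diet during lactation was followed by a different level of these enzymes' transcripts in the grown offspring was tested in 1 fit over all genes. The difference between the diets did not pass the test for ALDOA or for GAPDH. ALDOA averaged 8748 ± 1201 CPM in DDGS and 7411 ± 1245 CPM in SBM steers (SD, n = 5 each). The fitted log2 fold change of DDGS over SBM for ALDOA was 0.24 ± 0.17 (standard error; edgeR quasi-likelihood adjusted p = 0.996), with 4 of 5 DDGS animals above the SBM median. GAPDH averaged 3226.5 ± 495.1 CPM in DDGS and 2690.0 ± 437.6 CPM in SBM steers (SD, n = 5 each). For GAPDH the fitted log2 fold change was 0.26 ± 0.17 (standard error; edgeR quasi-likelihood adjusted p = 0.996), again with 4 of 5 DDGS animals above the SBM median. Of 12295 genes tested, 0 (0%) had an adjusted p under 0.05 in edgeR's quasi-likelihood test, and 460 (3.74%) had an unadjusted p under 0.05. With DESeq2, 15 genes of the 14085 with an adjusted p passed, and neither enzyme was among them (adjusted p = 0.865 for ALDOA and 0.844 for GAPDH). For 96 genes (0.781%) the CPM values of the 2 groups did not overlap, and neither enzyme was one of these.

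In the fit on all libraries, the unadjusted 95% interval of the fold was 0.925 to 1.51 for ALDOA and 0.944 to 1.52 for GAPDH. The estimate depends on single animals. Over the fits without 1 animal the log2 fold change was 0.17 to 0.32 for ALDOA and 0.18 to 0.35 for GAPDH. The unadjusted p was 0.173 for ALDOA and 0.129 for GAPDH. Over the fits without 1 animal it was 0.0791 to 0.350 for ALDOA and 0.0480 to 0.293 for GAPDH, with the lowest value of each without SBM replicate 1, where the edgeR adjusted p of GAPDH was 0.932. Of all genes tested, 15.5% had a smaller p than ALDOA and 11.1% a smaller p than GAPDH. Among the 58 genes with a mean above 1000 CPM, the class to which both enzymes belong, GAPDH had the rank of 3 and ALDOA that of 9 by p. Only 1 of the 58 had an unadjusted edgeR p under 0.05, where 3.74% of all tested genes did. The smallest edgeR adjusted p among the 58 was 0.996. These 58 genes leaned to higher values in DDGS, 46 of them against 12, with a median log2 fold change of 0.14, while the median of all tested genes was -0.01. Both enzymes had the direction of this majority. Without DDGS replicate 3 and SBM replicate 5, left out together after the data had been seen, the log2 fold change was 0.11 for both enzymes. With limma voom on all libraries it was 0.16 for ALDOA and 0.20 for GAPDH.

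The share of counts, which needs no scaling factor, did not pass the test for either enzyme. ALDOA took 0.851% ± 0.032 of the counts in DDGS and 0.754% ± 0.122 in SBM steers (SD, n = 5 each), with a two-sided exact permutation p of 0.135. GAPDH took 0.314% ± 0.016 in DDGS and 0.273% ± 0.035 in SBM steers (SD, n = 5 each), with a two-sided exact permutation p of 0.0714. Over the 8 permutation tests of means and SDs of these genes the adjusted p was 0.216 for both, and the smallest p that 5 animals against 5 allow is 0.00794. Single animals moved the unadjusted value across 0.05. Without SBM replicate 3 the exact permutation p was 0.0159 for the ALDOA share and 0.0238 for the GAPDH share, and without SBM replicate 1 it was 0.0397 for the GAPDH share.

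In the share of ALDOA the SD was 0.122 percentage points in SBM and 0.032 in DDGS steers, a difference that was not tested. On the log2 CPM scale with TMM, the SDs were 0.202 in DDGS and 0.247 in SBM steers for ALDOA, and 0.221 and 0.235 for GAPDH. These differences in SD did not pass a permutation test of values centred on their group's mean (p = 0.524 for ALDOA and 0.738 for GAPDH, adjusted p = 0.698 and 0.738).

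How even GAPDH is over animals bears on its use as a reference gene. Over all 10 steers GAPDH had a coefficient of variation of 17.7% and ALDOA 16.7% in TMM CPM. The highest animal had 1.84 times the GAPDH CPM of the lowest, and 1.71 times the ALDOA CPM. Counting error was a negligible part of this, at most 0.497% of a GAPDH value. The SD of log2 CPM was 0.256 for GAPDH and 0.249 for ALDOA, and 0.228 and 0.225 within diet groups.

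The 2 enzymes were set beside other abundant genes by their SD, as a description. Of 449 genes with a mean above 100 CPM, GAPDH had the rank of 194 and ALDOA that of 186 by SD, counted from the most even gene. The median SD of these 449 genes was 0.273. Among the 58 genes above 1000 CPM, where the median SD was 0.314, the ranks were 17 for GAPDH and 15 for ALDOA. The rank of GAPDH depended on the scaling. With library totals in place of TMM its SD was 0.173 and its rank 69 of 449, and ALDOA had an SD of 0.192 and a rank of 129. A measure without any scaling, the mean SD of a gene's log2 count ratios to the other genes above 100 CPM, was chosen after the data had been seen. By it GAPDH (0.327) had the rank of 38 and ALDOA (0.335) that of 71, with a median of 0.373 and a lowest value of 0.304 over the 449 genes. Without DDGS replicate 3 and SBM replicate 5, the animals at the ends of the GAPDH range, the SD of GAPDH with TMM was 0.169 and its rank 97.

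**Figure D2:**
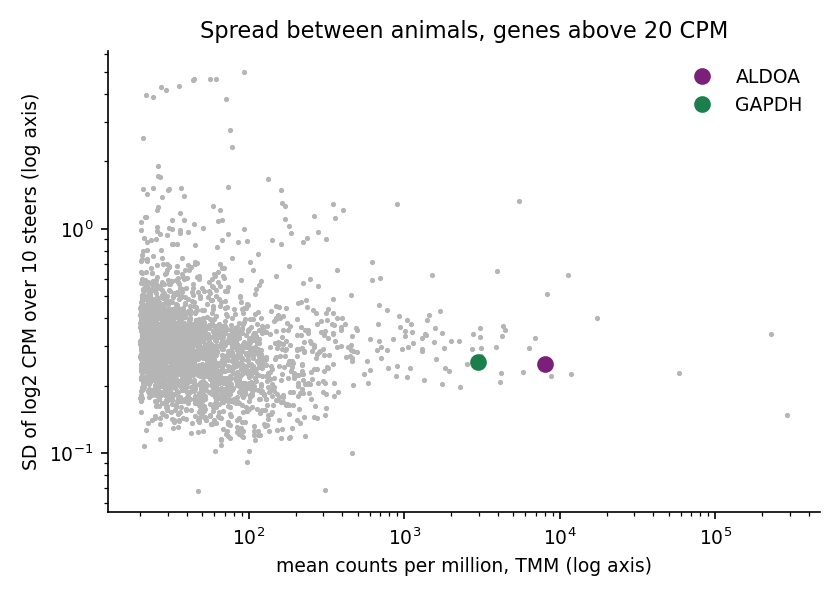
Mean CPM (TMM, log axis) against the SD of log2 CPM over the 10 steers (log axis) for genes above 20 CPM. Grey points are genes, and coloured points are ALDOA (SD 0.249) and GAPDH (SD 0.256). Of the plotted genes 33.5% had a lower SD than ALDOA and 35.8% a lower SD than GAPDH.

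The TMM factors, which ranged from 0.845 in DDGS replicate 3 to 1.15 in SBM replicate 3, enter the GAPDH values. Their Pearson correlation with GAPDH log2 CPM over the 10 libraries was -0.75 (permutation p = 0.0121, adjusted p = 0.169 over 14 relations), and Spearman's rho was -0.64 (permutation p = 0.0541, adjusted p = 0.379). Without the 2 libraries whose factors lay farthest from the median, SBM replicate 3 and DDGS replicate 4, Pearson's r was -0.85. The factor divides the GAPDH value, so the 2 quantities are not independent, and with the GAPDH share of library totals r was -0.28 (permutation p = 0.434, adjusted p = 0.759; rho = -0.28, permutation p = 0.425, adjusted p = 0.746), and -0.64 without the same 2 libraries. The SD of GAPDH log2 CPM was 0.256 with the TMM factors and 0.173 with library totals. The part of the factors in the spread of GAPDH beyond these values was not tested.

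ALDOA and GAPDH moved together from animal to animal. On the TMM scale they put the 10 steers in the same order, with Spearman's rho of 1 and Pearson's r of 0.96 (permutation p = 1e-05 for each, the smallest that 100000 resamples give; adjusted p = 2.5e-05 and 1.67e-05 over 5 scalings). Without DDGS replicate 3 and SBM replicate 5, the animals farthest from the median of GAPDH, r was 0.92, and within diet groups, after subtraction of each group's mean, it was 0.94. A shared library factor adds to such a correlation. With library totals r was 0.93 (permutation p = 0.00028, adjusted p = 0.00028) and rho 0.94 (permutation p = 0.00023, adjusted p = 0.00023), and r was 0.83 without SBM replicates 4 and 5.

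The count ratio of ALDOA to GAPDH within a library cancels every scaling. It was 2.68, 2.79, 2.62, 2.70 and 2.78 in DDGS replicates 1 to 5. In SBM replicates 1 to 5 it was 2.68, 2.91, 2.89, 2.47 and 2.83. The DDGS animals lay close together, and the SBM animals held both the lowest ratio, in replicate 4, and the highest, in replicate 2. The coefficient of variation of the ratio over all animals was 4.9%. It was 16.7% for ALDOA and 17.7% for GAPDH in CPM (TMM), and 12.3% and 11.5% in the share of counts. Its log2 value averaged 1.44 ± 0.04 in DDGS and 1.46 ± 0.10 in SBM steers (SD, n = 5 each). The diets differed by -0.02 in it (two-sided exact permutation p = 0.722, adjusted p = 0.738). The wider spread of the ratio in SBM steers, an SD of 0.0998 against 0.0371, did not pass either (permutation p of centred values = 0.0556, adjusted p = 0.216). ALDOA expressed relative to GAPDH, as in an assay with GAPDH as its reference, thus spanned 1.18-fold from the lowest to the highest steer. The CPM (TMM) of ALDOA spanned 1.71-fold and its share of counts 1.52-fold.

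**Figure D3:**
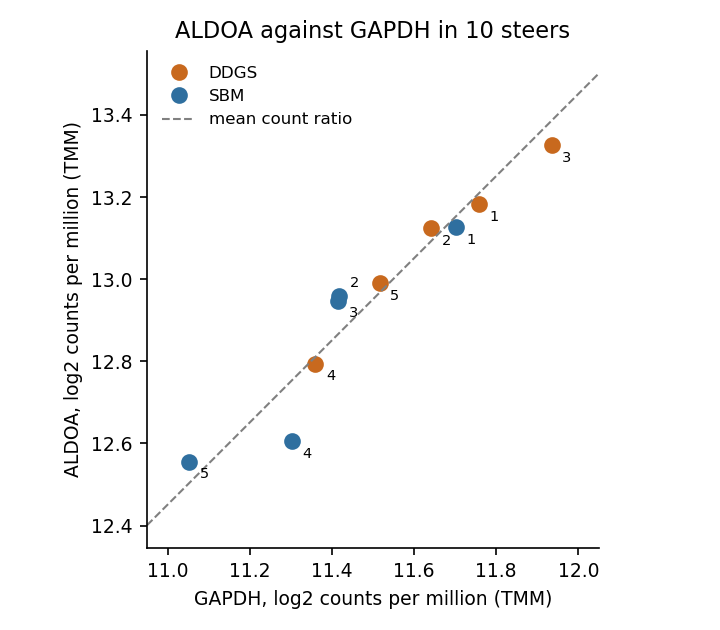
GAPDH (x axis) against ALDOA (y axis), both as log2 CPM (TMM), in 10 steers labelled by replicate number. The dashed line marks the mean log2 count ratio of 1.45, and the animals lie along it (Pearson's r = 0.96), with SBM replicate 4 farthest below it.

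The nearness of the 2 genes was compared with that of other genes as a description. Among 2764 other genes with a mean of at least 20 CPM, GAPDH was the one whose log2 CPM correlated most with ALDOA over the 10 libraries. For GAPDH, ALDOA had the rank of 3, and the first was ENSBTAG00000019011 (r = 0.96), which ranged from 737 to 1452 CPM. The gene other than GAPDH most like ALDOA was ENSBTAG00000020518 (r = 0.94), which ranged from 66.1 to 120.07 CPM. By the SD of the log2 count ratio, which needs no scaling, ALDOA and GAPDH were each other's closest partner, at 0.072, where the median over all partners was 0.333 for ALDOA and 0.328 for GAPDH. Correlations above 0.9 were found for 18 genes with ALDOA and 24 with GAPDH.

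Use of GAPDH as the divisor was then carried through the whole table. Relative to TMM, division by GAPDH moved each steer by its GAPDH deviation, from -0.43 log2 units in DDGS replicate 3 to 0.46 in SBM replicate 5. A log2 unit corresponds to a PCR cycle at full efficiency. The median SD of the 2765 genes above 20 CPM was 0.290 with TMM and 0.287 with library totals. It was lowest, 0.277, with totals without the 10 most abundant genes, and it was 0.327 with GAPDH and 0.332 with ALDOA as the divisor. Relative to TMM, GAPDH lowered the SD of 33.6% of these genes and ALDOA that of 32.2%, and the SD of the others was not lowered. Totals without the 10 most abundant genes lowered it for 59.2%. TMM equalises the bulk of genes by design, so its comparison with a single gene as the divisor is not an even one.

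Because the fitted GAPDH level was higher in DDGS steers, though the difference did not pass the test, division by it lowered the other genes there. The median log2 fold change of all 12295 genes went from -0.01 with TMM to -0.28 with GAPDH, a shift of -0.27. With TMM, the 460 genes whose unadjusted p was under 0.05 split into 175 higher and 285 lower in DDGS. With GAPDH as the divisor there were 926 such genes, 22 higher and 904 lower, and with ALDOA 840, 29 higher and 811 lower. An adjusted p under 0.05 was reached by 0 genes under either divisor in edgeR's quasi-likelihood test, with a smallest adjusted p of 0.0968 for GAPDH and 0.0894 for ALDOA. Single animals changed this count strongly. With GAPDH as the divisor it was 501 without SBM replicate 5, 555 without DDGS replicate 1, 617 without DDGS replicate 3 and 1527 without SBM replicate 1. Without DDGS replicate 3 and SBM replicate 5 together 449 genes were left, 91 higher and 358 lower. The GAPDH difference that produces this shift did not itself pass the test.

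**Figure D4:**
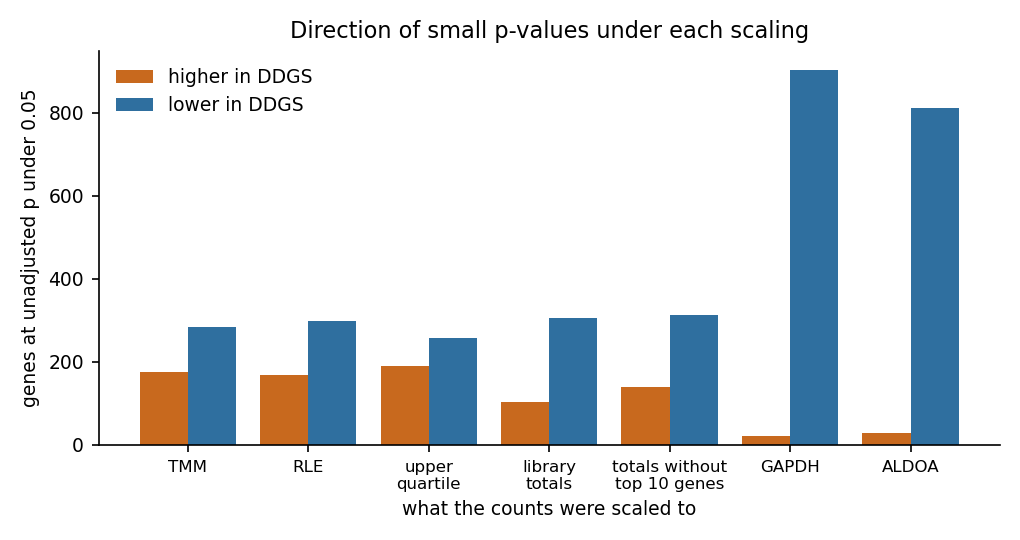
Number of genes at an unadjusted p under 0.05 in edgeR's quasi-likelihood test (linear axis from 0), split into those higher and lower in DDGS, for each scaling of the counts. Bars for TMM (175 and 285), library totals (103 and 305) show both directions, while division by GAPDH (22 and 904) or ALDOA (29 and 811) leaves few higher genes.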

How the data were processed

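RNA of 10 longissimus muscle samples, 5 per diet group, was sequenced, from stranded total RNA libraries (TruSeq), per the labels' protocols. The authors deposited whole-number read counts per gene, not scaled. Per the submitters' processing notes, the UMD3.1 assembly, TopHat2 2.0.9 with Bowtie2, HTSeq 0.5.3p7 and FastQC 0.10.1 were used. For the annotation release, strand setting, multiply aligned reads and filters, nothing is given in the sources used here. The table holds no 0.

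All genes were fitted with edgeR 4.0.16 (R 4.3.3): quasi-likelihood test, TMM, default expression filter, robust dispersions, group as the only term, Benjamini-Hochberg adjustment, threshold 0.05. Both genes passed the filter. Standard errors came from the coefficient and its F statistic. Log2 CPM used a prior count of 2. Single values were compared with exact permutation tests over all assignments of 5 against 5 animals. For differences in SD, values were first centred on their group's mean, which makes that test approximate. Correlations used 100000 permutations. Alternatives were other scalings and filters, DESeq2 1.42.0, limma voom 3.58.1, the replicate block and left-out libraries. The fits were tested on simulated counts.

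The genes named are the 2 enzymes and, by identifier, the gene most correlated with each. The 2 members and the lists of symbols were chosen with earlier results of these data known. The lists of glycolysis, reference and cell type genes were not run, since no table used here pairs the identifiers with symbols. P-values of the group comparisons set a difference against the spread between these animals. Each animal has 1 library, so library preparation is not separated from that spread.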

Additional observations from a re-analysis of the deposited data

How the results depend on the processing

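The direction of both enzymes and their side of the threshold were the same under all 21 alternatives, with a log2 fold change of 0.11 to 0.32 for ALDOA and 0.11 to 0.35 for GAPDH (adjusted p of 0.751 or more and 0.718 or more, in edgeR, DESeq2 or limma). The side of the threshold says little here, since the smallest edgeR adjusted p of any gene in the main fit was 0.193. Without SBM replicate 1 the unadjusted edgeR p of GAPDH was 0.0480. Division by GAPDH, which is not among the 21, gave a log2 fold change of -0.02 for ALDOA. The number of genes called was 15 in DESeq2, 1 without DDGS replicate 4, and 0 otherwise (0 to 1 over the left-out libraries). No pairing by replicate number was seen: the deviations of same-numbered animals correlated at -0.07 to 0.07, and 2 of 10 samples correlated best with their own number. The check runs over all tested genes, so a pairing that touches few genes would not show in it. With the replicate block, the log2 fold change was 0.24 for ALDOA and 0.26 for GAPDH (adjusted p = 0.998 in edgeR), and 0 genes were called. The SD of GAPDH was 0.173 with library totals, 0.190 with totals without the 10 most abundant genes and 0.169 without DDGS replicate 3 and SBM replicate 5; it was 0.213 to 0.276 over single left-out libraries. The rank of GAPDH was 69, 129 and 97 under the same 3 settings, 158 to 225 over single left-out libraries and 38 by count ratios, where that of ALDOA was 71. The log2 ratio of the enzymes differed by -0.059 to 0.00096 between the diets over left-out libraries, with the reversed sign, 0.00096, without SBM replicate 2, and by 0.0035 without DDGS replicate 3 and SBM replicate 5. The share of counts differed by 0.058 to 0.136 percentage points for ALDOA and 0.032 to 0.051 for GAPDH over left-out libraries, and for GAPDH by 0.028 without DDGS replicate 3 and SBM replicate 5. The causes were not tested. The correlation of the enzymes was 0.92 to 0.99 under its 15 alternatives. Library totals without SBM replicates 4 and 5, not among these, gave a Pearson's r of 0.83. Alternatives for the glycolysis list were not run. Counting error, if reads are taken as independent, was at most 0.497% of a value for these genes. Total counts correlated with log2 CPM (TMM) at a Pearson's r of 0.36 for ALDOA and 0.38 for GAPDH (permutation p = 0.324 and 0.28, adjusted p = 0.716 for both). Whether depth adds to their spread was not tested further.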
